A study of Mus musculus with 18 samples.

Results

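Mammary DNA methylation was compared between retired breeders and pregnant mice in 12 of 18 reduced representation bisulfite libraries. All 3 libraries of retired breeders and all 9 libraries of pregnant mice were taken by their labels. The comparison was set up with earlier results of these data known. The other 6 libraries came from virgin females and serve here only as a description. The retired group holds 1 library each of cells labelled mammary epithelial stem cells, luminal progenitor cells and mature luminal cells. The pregnant group holds the same 3 cell types at pregnancy day 10, day 16 and day 19, with 1 library for each day and cell type. All mice were C57BL/6 females, and no allele or agent is named for any group. The age of the retired and the pregnant mice, the number of past litters, the time since the last litter and the number of animals behind a library are not in the labels. There is 1 retired stage, so its 3 libraries may share animals, and the p-values measure the spread between these libraries.

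A retired breeder is a mouse that has carried litters and has been taken out of breeding, so its gland has gone through pregnancy, lactation and the regression that follows weaning. During pregnancy the mammary epithelium branches and forms the alveoli that later secrete milk, and after weaning most of these alveoli are lost. DNA methylation in mammals sits mainly on cytosines of CpG pairs. CpG-rich promoters are mostly unmethylated, most other CpGs are methylated, and CpGs of intermediate level include those that differ between the parental alleles of imprinted genes or between the X chromosomes of a female. The enzyme MspI, which cuts at CCGG, enriches the CpG-rich parts of the genome. The methylation level of a CpG is the percentage of its reads that kept a cytosine through bisulfite treatment.

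In each of the 3 cell types the retired library had fewer reads than any of the pregnant libraries of that type. The retired libraries held 24451074 reads over listed CpGs for stem, 17702302 for progenitor and 17513287 for mature cells. Their medians were 13, 10 and 10 reads per CpG, against medians of 11 to 43 reads in the pregnant libraries. Values below are over the 712078 CpGs that were read 5 times or more in each of the 12 libraries, so every library was read at the same CpGs. Their reads were summed in 77071 tiles of 1000 bp with at least 3 such CpGs. A tile held a median of 77 to 104 reads in the retired libraries and 88 to 303 in the pregnant libraries. The retired files all had 6 columns, as did the day 19 files and the day 16 progenitor file, while the other pregnant files had 4. Retirement, low depth and file layout therefore moved together in part. Few cell type markers could be read. Promoter windows were tested for 3 of 15 basal and stem cell markers, 1 of 11 luminal progenitor markers, 3 of 12 mature luminal markers and 2 of 21 markers of stromal, immune, endothelial and fat cells. Of these, Prom1 reached the highest level, 1.942 to 11.9% in retired and 2.966 to 10.4% in pregnant libraries. The labelled cell types could not be checked from so few windows.

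Mean methylation, with each CpG counted equally, was slightly higher in retired than in pregnant libraries in each cell type, by less than 1 percentage point. The retired libraries averaged 50.42% in stem, 50.96% in progenitor and 51.04% in mature cells. Pregnant stem cells had 50.07% at day 10, 49.51% at day 16 and 49.22% at day 19. Pregnant progenitor cells had 50.85%, 50.76% and 50.11% at those days, and pregnant mature cells 50.15%, 50.52% and 50.70%. Each retired library lay above all 3 pregnant libraries of its own cell type, although retired stem cells lay below several pregnant progenitor and mature libraries. Virgin libraries lay at 50.05 to 51.22%, so retired and pregnant libraries both overlapped them. Virgin stem cells had 50.4% at week 3 and 50.92% at week 9. Virgin progenitor cells had 50.39% and 50.4% at those weeks, and virgin mature cells 51.22% and 50.05%. Retired progenitor cells lay above both virgin libraries of their type, while retired stem and mature cells lay between theirs.

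The group means were 50.81% ± 0.34 in retired (SD, n = 3) and 50.21% ± 0.564 in pregnant libraries (SD, n = 9), a difference of 0.596 points (two-sided exact permutation of the retired label within cell types, p = 0.0312, 2 of 64 arrangements). The smallest p this test allows is 0.0156. As planned, 9 classes of CpGs were tested in this way and the Benjamini-Hochberg adjusted p was 0.0844, so the difference did not pass after adjustment. A further 3 classes, set by the virgin libraries, were added after seeing the data and adjusted apart. Their lowest adjusted p in this permutation test was 0.0938. Over all shared CpGs the difference was 0.814 points in stem, 0.388 in progenitor and 0.586 points in mature cells. Against single days it was 0.452 points for day 10, 0.540 points for day 16 and 0.795 points for day 19. With the reads of all shared CpGs pooled, which gives deeply read CpGs more weight, it was 3.33 points (exact permutation p = 0.0938). Among files of the 6-column layout alone it was 0.687 points, with an exact permutation p of 0.167 where the smallest possible was 0.0833. Without the day 16 stem or the day 16 mature library the exact permutation p was 0.0625, and without any of the retired libraries it cannot go below that value.

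The difference was largest at CpGs of intermediate level among the 3 classes of level. At 119132 CpGs whose mean over the 12 libraries was 20 to 80%, retired libraries averaged 56.88% in stem, 58.43% in progenitor and 60.06% in mature cells. Pregnant stem cells had 55.65%, 53.30% and 53.71% at day 10, day 16 and day 19, progenitor cells 59.23%, 58.08% and 57.86%, and mature cells 56.06%, 57.05% and 59.08%. Retired stem and mature cells lay above all 3 pregnant libraries of their type, and retired progenitor cells lay below day 10. The difference was 1.79 points (retired 58.46% ± 1.59, n = 3, pregnant 56.67% ± 2.17, n = 9; exact permutation p = 0.0469, adjusted 0.0844), made of 2.66 points in stem, 0.0374 in progenitor and 2.67 in mature cells. Virgin libraries lay at 56.21 to 59.93% in this class, so retired and pregnant libraries both overlapped them.

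CpGs near the ends of the scale differed less. Over 282969 CpGs with a mean under 20% the retired mean was 1.77% and the pregnant mean 1.63% (exact permutation p = 0.312). Over 309977 CpGs with a mean over 80% they were 92.63% and 92.08% (exact permutation p = 0.203). On the X chromosome, of which female cells silence a copy, the means were 77.42% in retired and 76.94% in pregnant libraries (exact permutation p = 0.156), against 49.50% and 48.89% on the autosomes (exact permutation p = 0.0312). By CpG density, the differences were 0.737 points in tiles of 3 to 9 CpGs, 0.245 points in tiles of 10 to 19 and 0.149 points in tiles of 20 or more. None of the 9 adjusted p-values was under 0.05. Within each cell type the retired library was also the shallowest, and the part of depth in these differences was not tested.

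**Figure D1:**
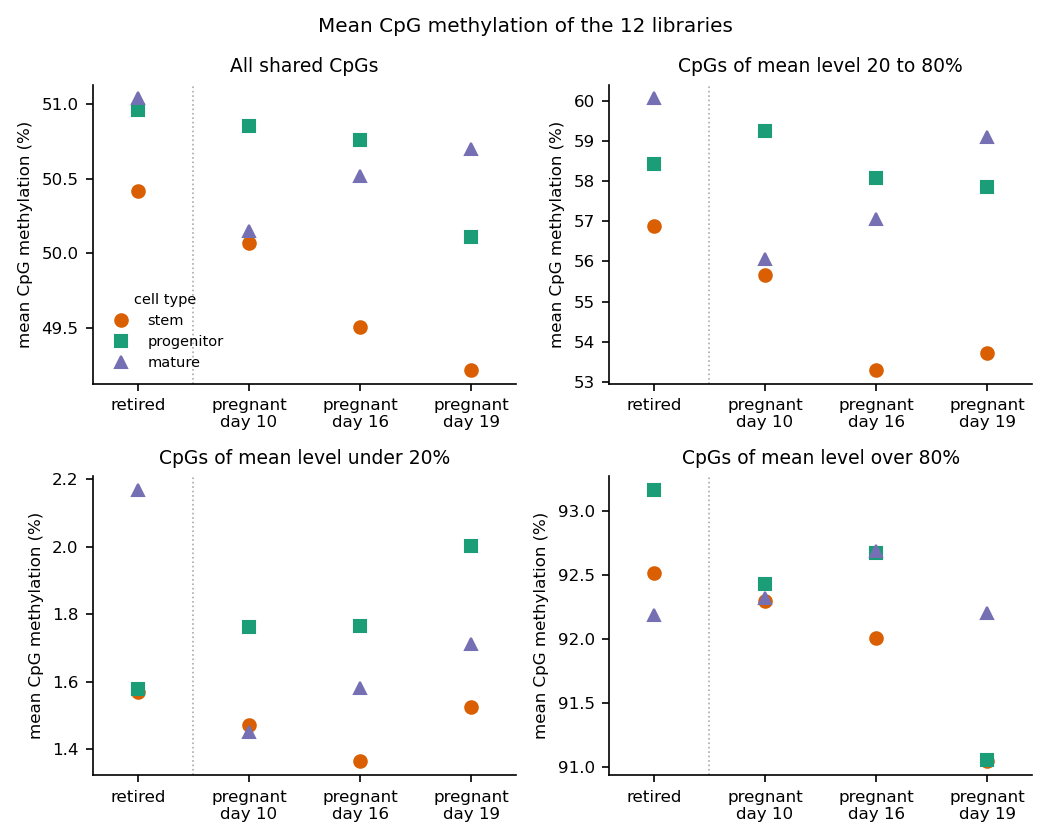
Mean CpG methylation in percent of each library over all shared CpGs and over 3 classes of mean level, with the retired libraries left of the dotted line and the pregnant libraries by day on its right; each point is 1 library and its shape and colour give the cell type, and the axes do not start at 0. Over all shared CpGs each retired point (50.42 to 51.04%) lies above the 3 pregnant points of its cell type. Under 20% the retired progenitor point lies below those of its type. Over 80% the retired mature point (92.19%) lies barely below the day 19 mature point (92.2%).

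No tile was called between retired and pregnant libraries. A call needed an adjusted p under 0.05 in a quasi-binomial regression with cell type as a block and a difference of at least 10 points, and 0.0% of the 77071 tiles passed, with a lowest adjusted p of 0.607. At an unadjusted p under 0.05 there were 5092 tiles (6.61%), of which 3468 were higher and 1624 lower in retired libraries (4.5% and 2.11% of tiles). By limma on log2 ratios 2 tiles were called, on chromosome 4 at 149429001-149430000 and on chromosome 13 at 49864001-49865000, each with 3 CpGs. The tile on chromosome 4 was at 100% in all 3 retired libraries, against 76.0 to 91.3% in the pregnant libraries. The tile on chromosome 13 was at 100%, 100% and 98.4% in retired stem, progenitor and mature cells, against 84.0 to 92.1% in the pregnant libraries. With the correlation of libraries of the same stage estimated (0.0162), limma called 1 tile.

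Tiles at which the groups did not overlap were more often higher than lower in retired libraries. All 3 retired libraries lay above all 9 pregnant libraries at 856 tiles (1.11% of tiles) and below all of them at 387 tiles (0.502%), with differences of 10 points or more at 233 and 99 of them. In tiles with a mean over 80% these shares were 1.52% above and 0.587% below, in tiles of 20 to 80% 0.984% and 0.466%, and in tiles under 20% 0.593% and 0.401%. On the X chromosome they were 1.30% above and 0.827% below, and on the autosomes 1.10% and 0.488%. Within each cell type the retired library also held the fewest reads per tile, and the part of depth in these shares was not tested.

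**Figure D2:**
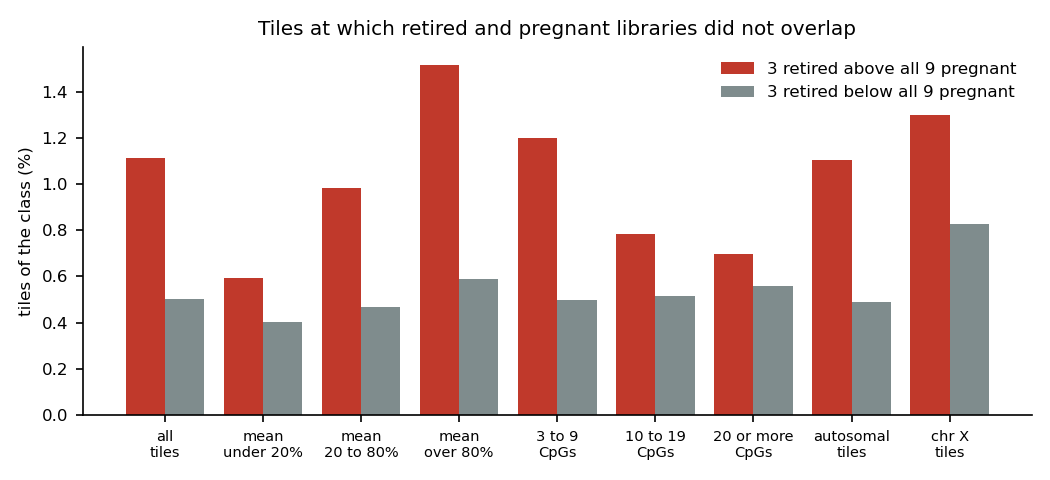
Percentage of tiles of each class at which all 3 retired libraries lay above (red) or below (grey) all 9 pregnant libraries; the bars are counts over tiles and carry no error. In every class shown the share above exceeds the share below, from 1.52% against 0.587% in tiles with a mean over 80% to 0.696% against 0.556% in tiles of 20 or more CpGs.

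Among tiles of at least 5 CpGs with an unadjusted p under 0.05, the largest non-overlapping differences, 10 in each direction, ranged from 16.9 to 27.6 points higher and from 14.7 to 23.3 points lower in retired libraries. All 20 missed the test, with adjusted p-values of 0.607 to 0.718, and they were picked for not overlapping. Positions are on build mm9, and a gene is named where the start of a promoter window matched to the files lay within 50 kb. Other genes may lie nearer.

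The tile with the largest positive difference lay on the X chromosome at 138662001-138663000. It had 65.5%, 48.3% and 48.1% in retired stem, progenitor and mature cells, against a lowest of 15.2%, a median of 24.6% and a highest of 34.9% in the pregnant libraries. Retired libraries were thus 27.6 points higher, the only 1 of the 10 higher tiles on that chromosome. Of the 856 tiles with every retired library above, 44 lay there. On chromosome 6 at 52174001-52175000, in the region of the Hoxa genes, which pattern the body axis, a tile had 11.7% in retired stem, 43.0% in retired progenitor and 22.7% in retired mature cells, against 4.14 to 11.6% in the pregnant libraries. Its nearest matched start was that of Hoxa6, 15.8 kb away, and without the retired progenitor library its difference was 8.53 points instead of 17.0. On chromosome 11 at 69840001-69841000, 29.5 kb from the start of Phf23, a tile stood at 32.1%, 31.2% and 31.6% in the 3 retired libraries and at 2.83 to 23.4% in the pregnant libraries. The 3 retired values were within 1 point of each other there.

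Of the 10 lower tiles, 4 lay on the X chromosome and 2 held a gene start. Of all 77071 tiles 3387 lay on the X chromosome, and of the 387 tiles with every retired library below 28 did. The share of all tiles that hold a matched start was not counted. The largest difference was on chromosome 7 at 148076001-148077000, 8.21 kb from the start of Psmd13, which encodes a subunit of the proteasome. Retired libraries had 21.6%, 23.5% and 30.6% there and pregnant libraries 36.1 to 60.1%, a difference of -23.3 points. The tile on chromosome 6 at 126965001-126966000 holds the start of Fgf6, a fibroblast growth factor. It had 21.4% in retired stem, 49.2% in retired progenitor and 46.5% in retired mature cells, against 50.9 to 69.9% in pregnant libraries. Retired stem cells were far below the other retired libraries, and without them the difference was -12.1 instead of -18.3 points.

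The tile on the X chromosome at 49967001-49968000 holds the start of Gpc3, which encodes a cell-surface heparan sulfate proteoglycan. Retired libraries had 26.8%, 20.3% and 28.9%, and pregnant libraries 31.3 to 57.4% with a median of 38.9%. Without the retired progenitor library the difference was -8.45 instead of -15.0 points. A further tile on this chromosome, at 69208001-69209000 and 0.536 kb downstream of the start of Prrg3, had 14.4%, 37.1% and 31.0% in retired stem, progenitor and mature cells and 39.9 to 62.3% in pregnant libraries. Without retired stem cells its difference was -12.04 instead of -18.3 points. On chromosome 4 at 11292001-11293000, retired mature cells carried the difference: 50% there, 74.9% and 75.4% in retired stem and progenitor cells, and 75.8 to 88.7% in pregnant libraries. Without retired mature cells it was -7.23 instead of -16.4 points.

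Virgin libraries, which had no part in the choice, lay nearer to the pregnant than to the retired mean in 54 of 60 values at the 10 higher tiles and in 55 of 60 values at the 10 lower tiles. The tiles were chosen for retired values that stand apart, so these counts are a description.

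**Figure D3:**
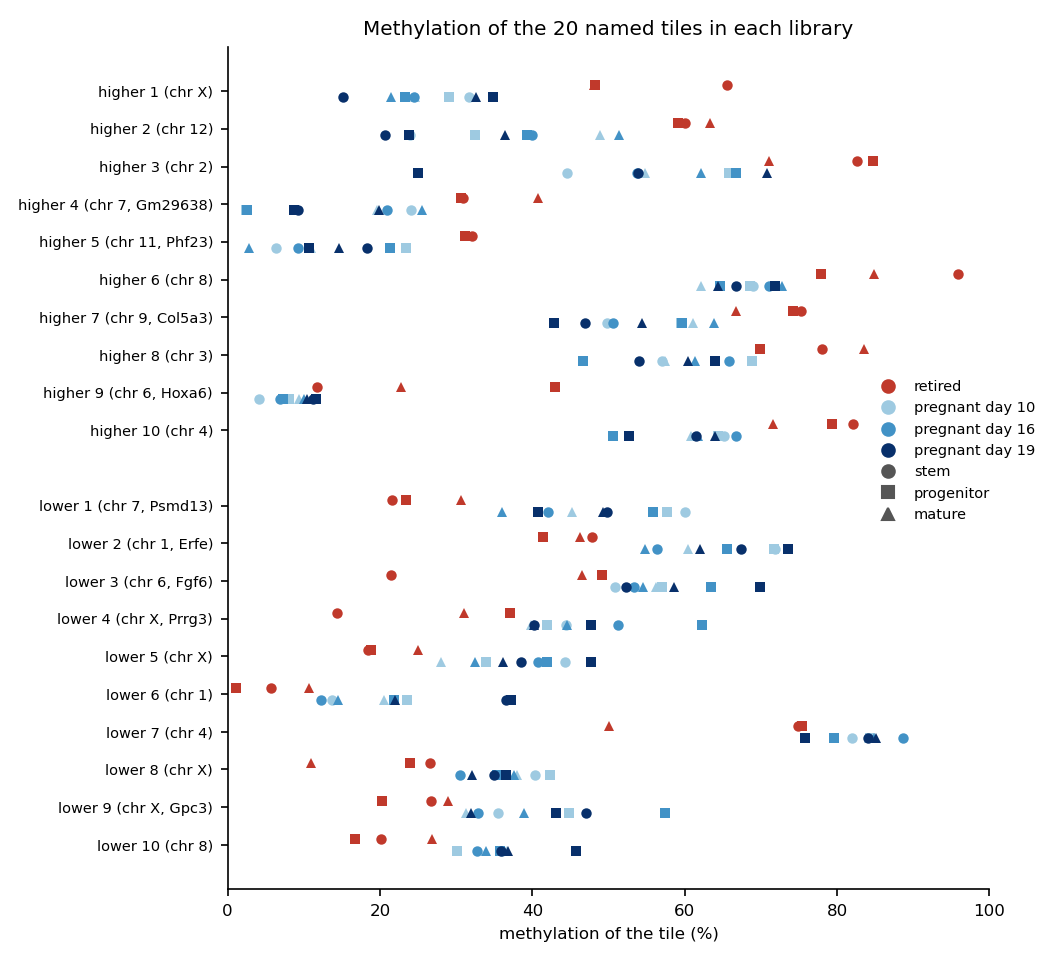
Methylation in percent of the 20 named tiles, those higher in retired libraries above and those lower below, ordered by size of difference; red points are the 3 retired libraries, blue points the 9 pregnant libraries by day, shapes give the cell type, and a gene is named where a matched start lies within 50 kb. At each tile the red points stand apart from the blue ones, as the choice of tiles requires, and single retired libraries stand off at the Hoxa6 tile (progenitor, 43.0%), the Fgf6 tile (stem, 21.4%) and the seventh lower tile (mature, 50%).

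Promoters were read through 300-base windows, 250 bases before to 50 after a gene start, from RefSeq (GRCm38.p6), placed on the mm9 files by the spacing of their CpGs. Of 32851 windows in that table, 8605 were placed, for 7641 genes, and 6542 windows of 6162 genes had at least 3 shared CpGs. None was called (0.0% of windows, lowest adjusted p 0.816). At an unadjusted p under 0.05 there were 263 windows (4.02%), 206 higher (3.15%) and 57 lower (0.871%) in retired libraries. The 3 retired libraries lay above all pregnant libraries at 14 windows (0.214%) and below at 13 (0.199%). Most windows were nearly unmethylated, and 262 had a pregnant mean over 20%. The median difference over all windows was -0.0718 points.

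Of these, the 19 genes with a window of at least 5 CpGs and an unadjusted p under 0.05 were named, 10 higher and 9 lower in retired libraries. All had an adjusted p of 0.816. The windows of Zrsr1, Parg, Ndufa1 and Pdha1 are printed below because they hold the 4 largest of these differences, 3 higher and 1 lower in retired libraries. Capitals mark the CpGs read 5 times or more in all 12 libraries, and each sequence is on the strand of its gene.

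Zrsr1: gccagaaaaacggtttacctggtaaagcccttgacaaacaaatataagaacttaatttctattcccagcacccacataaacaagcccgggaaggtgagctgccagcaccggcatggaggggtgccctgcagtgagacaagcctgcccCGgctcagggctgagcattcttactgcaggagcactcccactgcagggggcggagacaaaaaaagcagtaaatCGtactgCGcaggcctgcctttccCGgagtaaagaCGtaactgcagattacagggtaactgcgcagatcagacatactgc
Parg: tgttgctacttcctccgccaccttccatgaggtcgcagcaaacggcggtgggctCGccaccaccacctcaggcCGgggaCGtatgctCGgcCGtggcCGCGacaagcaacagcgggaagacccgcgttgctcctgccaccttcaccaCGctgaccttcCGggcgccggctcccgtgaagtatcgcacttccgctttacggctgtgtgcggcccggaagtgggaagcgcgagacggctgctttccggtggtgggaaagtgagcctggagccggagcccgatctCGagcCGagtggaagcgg
Ndufa1: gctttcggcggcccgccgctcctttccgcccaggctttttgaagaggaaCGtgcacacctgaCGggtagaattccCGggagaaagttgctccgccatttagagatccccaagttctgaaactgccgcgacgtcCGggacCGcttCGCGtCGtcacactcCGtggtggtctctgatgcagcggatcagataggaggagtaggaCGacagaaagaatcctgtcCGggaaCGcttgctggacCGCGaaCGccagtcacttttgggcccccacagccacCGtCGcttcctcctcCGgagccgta
Pdha1: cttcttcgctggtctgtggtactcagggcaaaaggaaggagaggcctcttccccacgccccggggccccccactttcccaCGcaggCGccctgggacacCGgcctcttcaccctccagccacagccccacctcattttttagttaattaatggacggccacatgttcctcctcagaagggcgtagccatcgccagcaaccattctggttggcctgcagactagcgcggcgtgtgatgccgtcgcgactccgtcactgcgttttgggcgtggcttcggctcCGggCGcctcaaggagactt

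Zrsr1 encodes a splicing factor and is an imprinted retrogene, a copy of the X-linked gene Zrsr2, expressed from the paternal allele while the maternal promoter is methylated. Its window, on mm9 chr11:22871755-22872054 on the plus strand, had 66.8% in retired stem, 53.2% in retired progenitor and 55.7% in retired mature cells, against a lowest of 18.8%, a median of 38.5% and a highest of 45.6% in the pregnant libraries. Virgin libraries had 40.2 to 51.2%, below every retired value. The mean was 58.6% ± 7.28 in retired (SD, n = 3) and 38.0% ± 7.94 in pregnant libraries (SD, n = 9), 20.6 points apart. All 5 measured CpGs, at positions 148, 221, 228, 245 and 256 from the 5′ end of the printed sequence, had a higher mean in retired libraries, by 14.7 to 30.3 points, and at 2 of them the groups did not overlap. The 3 retired libraries rest on 360 reads, 218 of them methylated. The difference was 16.9 to 23.8 points when single libraries were left out. How reads of near-identical copies were placed is not given in the sources used here.

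Parg encodes poly(ADP-ribose) glycohydrolase, which removes poly(ADP-ribose) chains from proteins. Its window, on chr14:33014907-33015206 on the plus strand, had 51.0%, 50% and 47.6% in retired stem, progenitor and mature cells, against 29.9 to 44.9% in pregnant libraries with a median of 33.4%. The retired values were close together and the highest pregnant values were the day 16 mature and progenitor libraries (44.9% and 40.6%). Its CpGs fell into 2 kinds: the 9 before the gene start averaged 45.7 to 69.0% in retired and 32.1 to 57.5% in pregnant libraries, and the 2 after the start were at 0% in all 12 libraries. The difference of 14.4 points was 7.31 points when each CpG had to be read 10 times or more in every library.

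Ndufa1, on the X chromosome, encodes a subunit of respiratory complex I. Its window, on chrX:34731184-34731483 on the minus strand, had 36.2%, 38.3% and 39.9% in retired stem, progenitor and mature cells, against 15.3 to 32.2% in pregnant libraries with a median of 28.3%. Of 18 measured CpGs, 13 had the higher mean in retired libraries and 5 the lower. The largest difference was at position 147 of the printed sequence, with 68.6% in retired and 26.7% in pregnant libraries. Around the gene start the CpGs went both ways. Those at positions 246, 276 and 279 had a lower mean in retired libraries, with 17.0%, 9.19% and 11.0% against 23.0%, 19.7% and 15.2% in pregnant libraries. Those at positions 242 and 291 had a higher one, with 45.3% and 38.9% in retired against 21.7% and 22.2% in pregnant libraries. The window's difference of 11.0 points was 6.10 points over CpGs with at least 10 reads.

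Pdha1, also on the X chromosome, encodes the alpha subunit of pyruvate dehydrogenase, which links glycolysis to the citric acid cycle. Its window, on chrX:156576313-156576612 on the minus strand, had 12.6%, 13.6% and 16.4% in retired stem, progenitor and mature cells, against 16.8 to 39.1% in pregnant libraries with a median of 21.8%. The retired mature value and the lowest pregnant value, day 19 mature, were within 1 point of each other. Most of the difference of -9.31 points came from the CpG at position 281, with a mean of 16.9% in retired and 41.1% in pregnant libraries. The CpG at position 100 was higher in retired libraries, 23.9% against 16.2%. The retired libraries held 244 reads over the window. Without the retired progenitor library the difference was -6.29 points.

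Ccdc24, on chr4:117545026-117545325, had 7.75%, 4.31% and 6.55% in retired stem, progenitor and mature cells and 10.4 to 25.1% in pregnant libraries. At the CpG at position 261 of its window, in the transcribed part, retired libraries had 20 to 26.3% and pregnant libraries 36.4 to 46.3%. The predicted gene Gm13420 had 13.0%, 19.0% and 20.7% in retired and 5.80 to 12.7% in pregnant libraries. Of its 11 measured CpGs, 4 had a higher and 7 a lower mean in retired libraries, and at 0 of them the groups did not overlap. At positions 11, 17 and 28 of its window retired progenitor and mature cells had 71.4 to 100%, and retired stem cells 20 to 33.3%. Taken whole, the other named windows were nearly unmethylated in both groups and differed by under 5 points. Those higher in retired libraries were Gm26567, Itprip, Golm1, Arhgef7, Rab23, which encodes a GTPase of vesicle traffic, and Nrcam, which encodes a neuronal cell adhesion molecule. Single CpGs stood out in some of these windows. The mean was 20.1% in retired and 3.46% in pregnant libraries at position 136 of Rab23. At position 42 of Itprip it was 14.2% and 1.32%. With reads thinned to equal depth, the sign changed at Golm1 (-0.318 points) and Nrcam (-0.238 points).

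Among those lower in retired libraries, Slc15a1, which encodes a peptide transporter, had 0.758%, 0% and 0% in retired stem, progenitor and mature cells and 1.09 to 6.30% in pregnant libraries. Macroh2a2, which encodes a macroH2A histone variant found on silent chromatin, had 0.440 to 0.813% in retired and 0.901 to 4.35% in pregnant libraries. Its difference of -2.09 points was 0 over CpGs with at least 10 reads. The CpG at position 251 of this window had a mean of 11.0% in retired and 34.8% in pregnant libraries. Etnk2, which encodes an ethanolamine kinase, had 0.552 to 1.28% in retired and 1.40 to 4.13% in pregnant libraries. The CpG at position 211 of its window had a mean of 10.9% in retired and 23.8% in pregnant libraries. Gm3458, Zswim9, Snx19 and 1700028I16Rik had 0 methylated reads in the retired libraries, of 813, 467, 836 and 732 reads. A count of 0 there allows levels of up to 0.369%, 0.642%, 0.359% and 0.410%, and pregnant libraries ranged from 0.0977 to 2.21% over these 4 windows. With reads thinned to the shallowest library, the differences of these windows from Slc15a1 to 1700028I16Rik kept their sign and stayed within 1.5 times of their value.

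**Figure D4:**
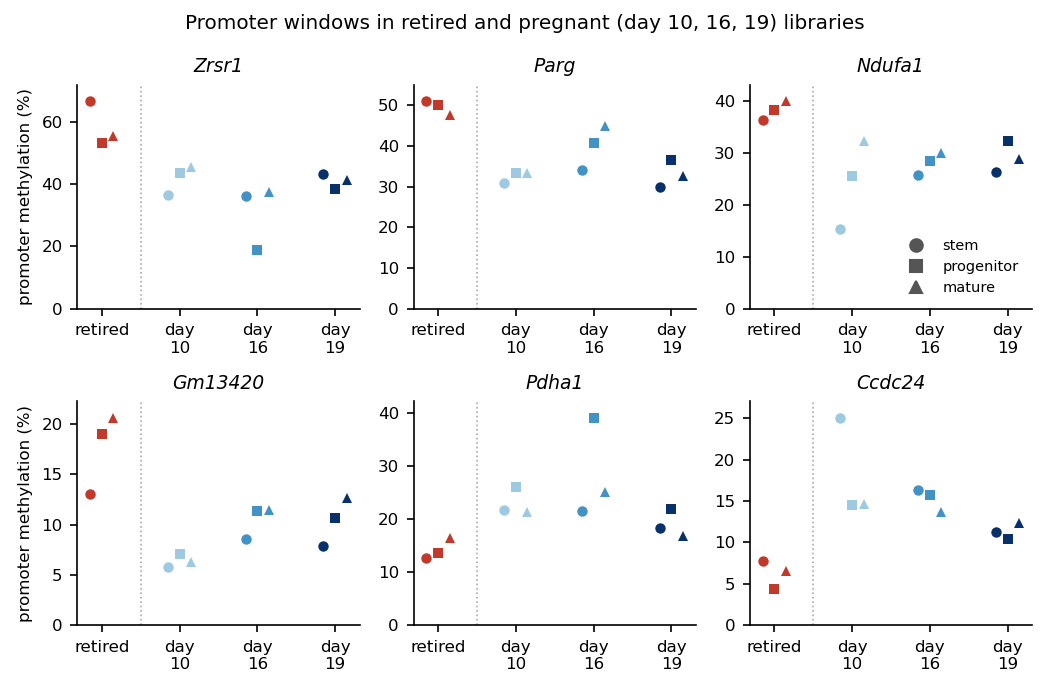
Methylation in percent of 6 promoter windows, with retired libraries in red left of the dotted line and pregnant libraries in blue by day; each point is 1 library, shapes give the cell type, and the axes start at 0 with a different upper end for each gene. Retired points lie above all pregnant points at Zrsr1 (53.2 to 66.8%), Parg, Ndufa1 and Gm13420 and below them at Pdha1 and Ccdc24, as the choice of windows requires.

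Zrsr1 belongs to the imprinted genes, which are expressed from a single parental allele. Of 35 such genes, 9 had a tested window, 0 were called, and only Zrsr1 had an unadjusted p under 0.05 or groups that did not overlap, beside 4.02% of all windows at that p, 0.214% with all retired libraries above and 0.199% with all below. The median difference over the list was -0.156 points, against -0.0718 points over all windows. Igf2r, the receptor that clears insulin-like growth factor 2, had 50.2%, 45.8% and 36.4% in retired stem, progenitor and mature cells and 27.3 to 48.96% in pregnant libraries. Mcts2 had 21.4%, 48.8% and 56.7% in retired libraries against 36.1 to 65.1% in pregnant libraries. Plagl1, a transcription factor of fetal growth, had 42.1%, 2.13% and 55.1% in retired libraries and 15.2 to 52.0% in pregnant libraries. Retired values of Plagl1 covered more than the whole pregnant range, so this window was poorly fixed. Zdbf2 had 0.990 to 7.74% in retired and 0.172 to 5.29% in pregnant libraries.

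No list of genes had a called window. Promoters of genes of pregnancy and lactation were close to 0 in both groups, like most windows. Over all tested windows the median level was 0% in retired and 0.174% in pregnant libraries. Of prolactin signalling and alveolar genes, 9 windows were tested and 0 had an unadjusted p under 0.05, beside 4.02% of all windows. Among them Stat5a, the transcription factor activated by prolactin, was at 0% in all retired and 0 to 0.413% in pregnant libraries, and Jak2, the kinase that activates it, at 0% and 0 to 0.405%. Id2, which alveolar cells need to form, was at 0% in retired and 0 to 1.79% in pregnant libraries. Of milk protein and secretion genes only Fasn, the fatty acid synthase, and Slc34a2, a phosphate transporter, could be tested, at 0% and 0 to 1.55% in retired and 0 to 2.33% and 0.125 to 2.22% in pregnant libraries. The milk protein genes themselves had no tested window. Of involution and remodelling genes, 7 windows were tested, with a median difference of -0.116 points against -0.0718 points over all windows. Of the 7, 0 had an unadjusted p under 0.05, beside 4.02% of all windows. Timp3, an inhibitor of matrix metalloproteinases, was at 0% in all retired and 0 to 10.1% in pregnant libraries.

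Of 5 windows of cyclin-dependent kinase inhibitors and senescence genes, 1 had an unadjusted p under 0.05, beside 4.02% of all windows. This was Bmi1, a Polycomb gene that represses Cdkn2a. It had 0.649%, 0.962% and 0% in retired stem, progenitor and mature cells and 0% in all pregnant libraries. Cdkn2a itself was at 0 to 0.508% in retired and 0 to 0.606% in pregnant libraries. Of 21 windows of homeobox and other developmental transcription factors, Lhx3 and 1 of the windows of Pax6 had an unadjusted p under 0.05, again beside 4.02% of all windows. Lhx3 had 1.56 to 7.45% in retired and 0 to 2.63% in pregnant libraries, and Pax6 0 to 8.70% and 0 to 2.17%. Their highest retired values were in mature cells. Tbx1, the list's most methylated window, had 58.1 to 77.1% in retired and 38.7 to 80.2% in pregnant libraries.

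The other lists had 0 windows at an unadjusted p under 0.05, beside 4.02% of all windows. They were 12 windows of the DNA methylation machinery, 11 of hormone receptors, 22 of Wnt, TGF-beta, Notch and Hedgehog signalling genes, 3 of basal and stem cell markers, 1 of luminal progenitor markers, 3 of mature luminal markers and 3 of markers of stromal, immune, endothelial and fat cells. At 1 of the 3 windows of Dnmt3a, which encodes a methyltransferase that sets new methylation, all retired libraries were at 0% and pregnant libraries at 0.16 to 2.78%, while 0.199% of all windows had every retired library below the pregnant ones. The maintenance enzyme Dnmt1 was at 0% in retired and 0 to 0.533% in pregnant libraries. Over all 13 lists the median differences ran from -0.450 to 0.395 points, beside -0.0718 points over all windows.

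Within single cell types retired libraries could be compared with the pregnant libraries of the same type only by taking the lone retired library to vary like the pregnant ones. No tile was called in stem, progenitor or mature cells (0.0% each). At an unadjusted p under 0.05 there were 4097 tiles in stem (5.32%), 3766 in progenitor (4.89%) and 4307 in mature cells (5.59%), with lowest adjusted p-values of 0.925, 0.953 and 0.451. In each type more of them were higher than lower in the retired library: 2851 and 1246 in stem (3.7% and 1.62%), 2450 and 1316 in progenitor (3.18% and 1.71%) and 2751 and 1556 in mature cells (3.57% and 2.02%). Limma called 3 tiles in stem, 2 in progenitor and 0 in mature cells, and all 5 stood at 100% in the retired library of that type. That on chromosome 11 at 96625001-96626000 had 100% in retired stem cells, against 63.4 to 68.2% in pregnant stem cells, while retired progenitor and mature cells had 51.5% and 56.8%. The differences between cell types in the effect of retirement gave 0 calls among 77071 tiles for each pair, with 3606 (4.68%), 3632 (4.71%) and 4133 (5.36%) tiles at an unadjusted p under 0.05 for stem minus progenitor, stem minus mature and progenitor minus mature cells. No promoter window was called within a cell type (0.0% each), with 167 (2.55%), 168 (2.57%) and 177 (2.71%) windows at an unadjusted p under 0.05 and 2, 8 and 1 called by limma in stem, progenitor and mature cells.

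Set against single days of pregnancy, retired libraries differed at 10 tiles from day 10 (0.013% of tiles), at 0 tiles from day 16 (0.0%, lowest adjusted p 0.768, 4985 tiles or 6.47% at an unadjusted p under 0.05) and at 33 tiles from day 19 (0.0428%). All 10 tiles called against day 10 fell in retired libraries. Of the 33 called against day 19, 27 fell and 6 rose, and the 33 include the 10. At all 10 and all 33 the day 16 mean lay near the retired mean, at most 4.18 and 7.62 points from it. The levels of retired libraries at these tiles were thus shared with pregnant day 16 libraries. The contrasts share the retired libraries. At an unadjusted p under 0.05 there were 5550 tiles (7.2%) against day 10 and 6502 (8.44%) against day 19. Limma called 0 tiles against day 10, 0 against day 16 and 54 against day 19. No promoter window was called against a day (0.0% each), with 307 (4.69%), 237 (3.62%) and 316 (4.83%) at an unadjusted p under 0.05 against days 10, 16 and 19, and 15, 0 and 5 called by limma.

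Most of these calls rest on single CpGs at which day 16 libraries stood apart from day 19 libraries. Of the 10 tiles against day 10 all 10, and of the 33 against day 19 29, held a CpG at which day 16 and day 19 libraries differed by at least 30 points, the same way, in all 3 cell types. Without such CpGs 0 and 3 tiles were called. With CpGs of the highest 1% of coverage left out, 0 and 0 were called. Single libraries also moved these counts. Against day 10 there were 18 calls without the day 16 progenitor library, 3 without day 10 progenitor, 1 each without day 10 stem and day 19 stem, and 0 without any of the other 8 libraries. Against day 19 there were 20 without day 16 stem, 18 without day 10 mature, 13 without day 19 progenitor, 3 without day 19 stem and 0 without day 19 mature cells, and 3, 7 and 8 without the retired stem, progenitor and mature library. With each CpG weighted equally, without a test, 6 of the 10 and 21 of the 33 differences were still 10 points or more in the same direction.

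The tile on chromosome 12 at 37342001-37343000 shows the pattern. At the CpG at position 37342935, retired stem, progenitor and mature cells had 1.43%, 1.19% and 2.03%. Day 10 libraries had 64.8%, 79.7% and 64.9% there, day 16 libraries 1.07%, 2.07% and 1.59%, and day 19 libraries 96.9%, 97.3% and 97.3%. Each of these values rests on at least 641 reads. The other 2 CpGs of the tile showed no such split. On the X chromosome, at the CpG at position 102810610, retired libraries had 0.170%, 0.304% and 0.324%, day 10 libraries 74.1%, 84.1% and 78.7%, day 16 libraries 0.819%, 0.634% and 0.746%, and day 19 libraries 96.9%, 97.4% and 96.7%. It was the tenth of 12 CpGs in its tile, and 11 CpGs showed no such split. With each CpG weighted equally the tile differed by -6.32 points from day 10 and -9.18 from day 19, in place of -26.3 and -32.7. Both tiles were read very deeply. A library held 2740 to 34586 reads in the X chromosome tile and 1924 to 17457 in the chromosome 12 tile. The median per tile and library was 151 reads. Bisulfite reads show a C-to-T difference in the DNA of the mice as an unmethylated CpG. At split CpGs such a difference and a change of methylation cannot be told apart from these files, and the part of read processing was not tested.

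Such split CpGs were rare and retired libraries did not always side with day 16. Day 16 was the lower at 529 CpGs (0.0743% of shared CpGs), where retired libraries were nearer to day 16 at 301 (56.9%). Day 16 was the higher at 372 CpGs (0.0522%), where retired libraries were nearer to it at 237 (63.7%). The CpGs were chosen by the day 16 and day 19 libraries alone, and their neighbours in a tile are not independent.

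Of the tiles called against day 19, a few show other patterns. On chromosome 3 at 107280001-107281000, 18.7 kb from the start of the potassium channel gene Kcnc4, 2 of 3 CpGs split together. The tile had 8.51%, 12.2% and 10.0% in retired and 81.0%, 84.3% and 86.9% in day 19 libraries, with 6.22 to 26.6% in the other pregnant libraries. Its difference from day 19 of -73.8 points was -44.4 with each CpG weighted equally. On chromosome 6 at 112995001-112996000, near the start of the predicted gene Gm43868, retired libraries had 50%, 52.2% and 53.8%, against 1.12%, 1.00% and 2.14% in day 19 libraries. Days 10 and 16 had 23.4 to 59.5% there. On chromosome 1 at 138592001-138593000 the difference of 62.0 points was 3.03 points with thinned reads and 6.68 points with each CpG weighted equally. Its first CpG, read 180 to 264 times in retired and 19 to 33 times in day 19 libraries, was at 89.8 to 90.2% and 93.8 to 100% there. Other tiles shrank likewise. On chromosome 5 at 120887001-120888000 a difference of 23.4 points was 1.57 with thinned reads and 2.03 with equal weights. On chromosome 11 at 3025001-3026000 one of -39.2 points was -8.33 and -8.14. With thinned reads 29 of the 33 differences were still 10 points or more in the same direction.

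**Figure D5:**
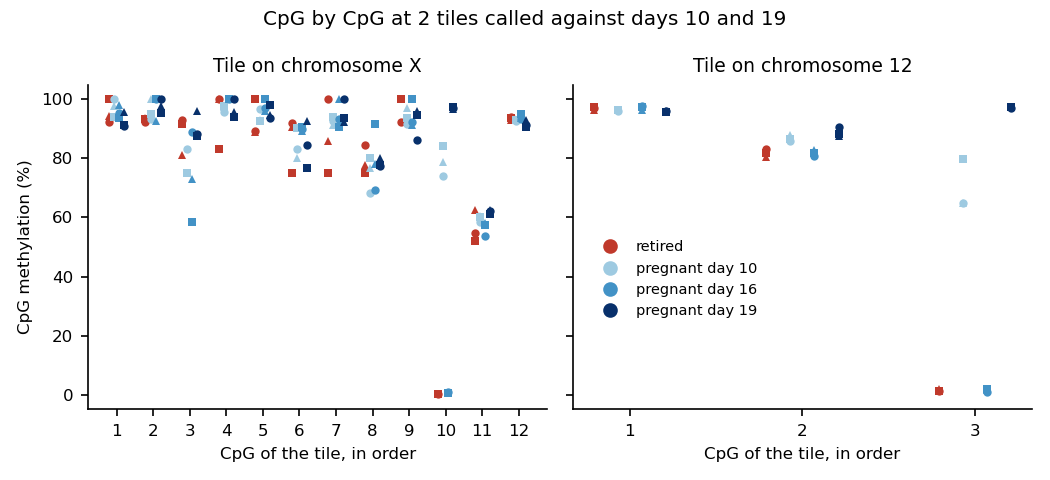
Methylation in percent of each CpG, in order along the tile, in the tile of the X chromosome (12 CpGs) and of chromosome 12 (3 CpGs) called against days 10 and 19; red points are retired and blue points pregnant libraries by day, 1 point for each library. At the tenth CpG on the X chromosome and the third on chromosome 12, retired and day 16 points lie at 0.170 to 2.07%, with day 10 at 64.8 to 84.1% and day 19 at 96.7 to 97.4%, while the other CpGs show no such split.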

How the data were processed

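DNA was cut with MspI, treated with bisulfite and sequenced as multiplexed libraries, per the labels' protocols. Each deposited file lists CpGs on build mm9, per the submitters' processing notes, with methylated reads over all reads. How reads were aligned, called and filtered is not given in the sources used here. The authors deposited a score beside the reads in 7 files, 1000 times the methylated share, which was used only as a check on the reads (largest difference 0.5).

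Groups follow the labels. Members, lists and tests were chosen with earlier results of these data known. The CpGs used were read 5 times or more in each of the 12 libraries, and reads were summed in tiles of 1000 bp that held 3 or more of them. Tiles and promoter windows were tested by quasi-binomial logistic regression with cell type as a block, the dispersion moderated across features and held at 1 or above, an F test and Benjamini-Hochberg adjustment. The threshold for a call was 0.05 for the adjusted p and 10 points for the difference. Mean levels were tested by exact permutation of the retired label within cell types. The test was tried on simulated counts, where it missed many tiles with real changes, so the absence of calls does not show that levels were equal. Reads may include copies of 1 molecule, so limits from a count of 0 (3 reads of the total) cover counting error only.

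Features were named by rule: non-overlapping tiles and promoters by size of difference, called ones first, then those with at least 5 CpGs at an unadjusted p under 0.05, 1 window per gene, up to 10 each way, and up to 4 members of each list by lowest p. Some further list members were named for their role after their values were seen.

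The gene table at hand is on GRCm38.p6, so none of its coordinates is printed, and only its chromosomes and the order of its genes were used. A RefSeq promoter was placed where its CpG spacing matched the listed CpGs better than at any other place, by at least 2 CpGs, and with under 0.01 places expected by chance, which placed 6181 windows, all on the right chromosome and in the right order. A second step placed 2424 more, Zrsr1 and Pdha1 among them, between placed neighbours from at least 4 listed CpGs. This rule replaced a planned one of a single place in the genome.

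Alternatives were 10 reads per CpG, CpGs shared by all 18 libraries, 500 bp tiles, 20 points, no CpGs of the top 1% of coverage, no X, Y or mitochondrial CpGs, limma with and without a stage correlation, stage as a term, no cell type term, thinned reads, 6-column files only and each library left out. Leaving out each day, classes set by virgin libraries, wider promoters, equal CpG weights and removal of split CpGs were added after seeing the data. Software was R 4.3.3 (limma 3.58.1, statmod 1.5.0) and Python 3.11.15 (matplotlib 3.10.9, numba 0.67.0, pandas 2.3.3, scipy 1.17.1, numpy 2.4.6).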

Additional observations from a re-analysis of the deposited data

Results flagged for a closer look

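Among 48 results tested for a library that stands apart from the other pregnant libraries, 6 (12.5%) held one. Of the 48, 39 were the tiles and promoters named for large differences between retired and pregnant libraries. A pregnant library far from the retired ones enlarges such a difference, and all 6 lay on that side. The usual rate of about 1 in 20 is therefore no measure for this count. The day 19 progenitor library had 45.8% at the tile on chromosome 8 at 87338001-87339000, with the next pregnant library at 36.8%, against 16.7 to 26.9% in the retired libraries. The day 16 progenitor library had 18.8% at the Zrsr1 window, where the next pregnant library had 36.4%; without it the retired difference was 18.1 points, against 20.6 with it. At Ndufa1 the day 10 stem library had 15.3%, with the next at 25.6%, and without it the difference was 9.78 points, against 11.0. At Pdha1 the day 16 progenitor library had 39.1%, on 46 reads, with the next at 26.1%, and without it the difference was -7.62 points, against -9.31. At Ccdc24 the day 10 stem library had 25.1%, with the next at 16.3%. At 1700028I16Rik the day 16 mature library had 1.33%, with the next at 0.721%. The 2 libraries that recur, day 16 progenitor and day 10 stem, are not alike in depth, with a median of 11 and 29 reads per CpG.

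In 2 classes of CpGs a retired library lay below all pregnant libraries of its cell type while the other 2 retired libraries lay above all of theirs. At CpGs with a mean under 20% this was the progenitor library, with a difference of -0.266 points, against 0.117 points in stem and 0.586 points in mature cells. Retired stem cells had 1.571% there, close to the 1.526% of day 19 stem cells. At CpGs with a mean over 80% it was the mature library, with -0.214 points, against 0.739 points in stem and 1.12 points in progenitor cells. The retired mature library had 92.19% there and the day 19 mature library 92.2%, so these 2 were nearly equal. The difference between cell types was not tested for these classes.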

How the results depend on the processing

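Over 1495 alternative values of 81 results, 1152 were counted as the same and 9 changed direction. Counts of calls were the same if equal or within 1.5 times, and values with equal CpG weights if within the larger group SD. Other values were the same if they kept their direction and their side of the threshold. Counts of 0 that stayed at 0 and named features that missed the test throughout are among the 1152. No tile or promoter was called between retired and pregnant libraries under any alternative of the regression, while limma called 2 tiles, 1 with a stage correlation, 3 in stem and 2 in progenitor cells, and 2, 8 and 1 promoters in stem, progenitor and mature cells, 15 against day 10 and 5 against day 19; the cause was not tested. The 10 tiles against day 10 and 33 against day 19 were 0 and 0 without CpGs of the top 1% of coverage, 3 and 15 with thinned reads, 0 and 3 without split CpGs, 0 and 54 by limma, and 0 to 18 and 0 to 36 when single libraries were left out; the cause was not tested. The mean difference over all CpGs was 3.33 points with pooled reads (exact permutation p = 0.0938), 0.687 in 6-column files, 0.624 without day 16, 0.496 without day 19 and 0.487 to 0.700 when single libraries were left out. At CpGs of 20 to 80% it was 2.12 points over any CpG with 5 reads, 1.54 in 6-column files, 1.53 without day 16, 1.90 without day 19 and 1.35 to 2.67 when single libraries were left out. The exact permutation p of this class, 0.0469 with all 12 libraries, was 0.185 without day 16 and 0.148 without day 19. Some single pregnant libraries moved it too. It was 0.104 without day 10 mature and 0.146 without day 16 mature cells, where the smallest possible was 0.0208. Leaving out a retired library raises the smallest possible p to 0.0625.

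With thinned reads the differences of Golm1 and Nrcam became -0.318 and -0.238 points. Without split CpGs the differences of tiles called against single days became 0.887 (day 10) and 1.21 (day 19) at 15:16542001, 1.44 at 2:167110001, 0.0425 at 2:24023001, -1.10 at 14:55052001, 4.38 at 14:79064001 and 0.449 at 18:85953001, since those CpGs carried them. Among the 39 tiles and promoters named for retired against all pregnant libraries, 35 differences with equal weights, 36 with thinned reads and 17 of the 25 that could be computed with 10 reads per CpG stayed within 1.5 times of their value. The tile on chromosome 3 at 68524001-68525000 moved to 6.60 points with thinned reads and 5.14 with equal weights. No paired analysis was possible because the labels give no replicate numbers, other than pairing by cell type, which is the block of the regression. Depth limits the precision most in the retired progenitor and mature libraries, at a median of 78 and 77 reads per tile, followed by the day 16 progenitor library at 88 and the retired stem library at 104.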

Other observations

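Some of the remaining tiles with large differences lay far from any matched promoter start. On chromosome 12 at 5199001-5200000, retired stem, progenitor and mature cells had 60%, 59.1% and 63.3%, against 20.7 to 51.4% in pregnant libraries. Within each pregnant day the mature library was the highest there, and the 3 retired cell types lay within 5 points of each other. The difference of 25.6 points was 16.0 points with each CpG weighted equally. On chromosome 8 at 36006001-36007000 the retired libraries had 95.9%, 77.9% and 84.8%, against 62.1 to 72.7% in pregnant libraries. On chromosome 1 at 187505001-187506000 they had 5.64%, 1.10% and 10.7%, against 12.3 to 37.2% in pregnant libraries, with the highest values at day 19 in stem and progenitor cells (36.6% and 37.2%). On the X chromosome at 54756001-54757000 they had 18.4%, 18.9% and 25.0%, against 28.0 to 47.7%, and at 92907001-92908000 26.6%, 24.0% and 11.0%, against 30.4 to 42.3%. All of these missed the test.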
